A study of Mus musculus with 20 samples.

Results

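Transcripts of 9 interleukin receptor chains were followed in donor T cells that lacked or kept the DNA methyltransferase gene Dnmt3a. The set was chosen as receptor chains for the cytokines that govern T cell survival, expansion and differentiation, and its 10 genes were Il7r, Il2ra, Il2rb, Il2rg, Il4ra, Il15ra, Il21r, Il12rb1, Il12rb2 and Il18r1. Il2rg was not analysed here, and the other 9 are 9 of 17101 genes with values. All 9 passed the filter on low values in every comparison. RNA-Seq was performed on 20 libraries of sorted splenic donor T cells taken on day +10 after allogeneic bone marrow transplantation from C57BL/6J (B6) mice into B6D2F1 (F1) mice. The groups, of 4 libraries each, were WT CD4+, WT CD8+, KO CD4+, KO CD8+ and KO double-positive (DP) cells with both coreceptors. DP cells of WT donors were not analysed here. The KO donors carried 2 loxP-flanked Dnmt3a alleles and Cre recombinase under the Cd4 promoter (DNMT3a KO, CD4-Cre 2loxP), so that the gene was deleted during thymic development in cells of both lineages, and the WT donors were littermates. Donors were 6 to 12 weeks and recipients 8 to 12 weeks old by the labels, and all recipients were irradiated before transplantation. The labels number the KO animals 1 to 4 and the WT animals 2, 3, 5 and 6.

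Receptors of this family work as assemblies of chains. The IL-7 receptor joins Il7r (CD127) to the common gamma chain and carries the survival signal of resting and memory T cells, and its transcript normally falls when T cells are activated. The high-affinity IL-2 receptor joins Il2ra (CD25) and Il2rb (CD122) to the gamma chain, Il2rb also serves IL-15, and Il15ra is the chain that binds and presents IL-15. Il4ra and Il21r are the ligand-binding chains for IL-4 and IL-21. Il12rb1 and Il12rb2 together form the IL-12 receptor of type 1 responses, and Il18r1 binds IL-18 and signals with Il18rap. The gamma chain receptors act through Jak1, Jak3 and STAT factors, of which Stat5a and Stat5b serve IL-2, IL-7 and IL-15.

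Between 37547651 and 46966318 reads fell on genes in each library. Values are normalized counts, reads divided by the factor of each library, and groups were compared with limma on log2(normalized count + 1), with P values adjusted by the Benjamini-Hochberg procedure over all genes tested and a threshold of 0.05. Dnmt3a lay between 650 and 2007 normalized counts in the 12 KO libraries and between 3542 and 5171 in the WT libraries. Reads from the undeleted part of the gene are included in these values. Cd4 lay between 44804 and 74386 in the CD4+ groups, between 302 and 458 in KO CD8+ and between 9.88 and 79.6 in WT CD8+ libraries. Cd8a lay between 45783 and 68740 in the CD8+ groups and between 99.1 and 586 in WT CD4+ libraries. In the CD4+ cells of KO animals 1 to 4 Cd8a stood at 3771, 115, 78.3 and 227. KO DP cells held both transcripts, with Cd4 between 8758 and 15351 and Cd8a between 41594 and 68516. Whether cells of another subset contributed to these values was not tested. The KO DP library of animal 3 had reads on 11783 genes, where the other libraries had 13203 to 14677.

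Positions are from the RefSeq annotation of GRCm38.p6 (mm10). Il7r lies on chromosome 15 from 9506159 to 9529941 and Il2rb on the same chromosome from 78479256 to 78511621. Among the members are 2 pairs of neighbours. Il2ra, on chromosome 2 from 11642792 to 11693194, ends 12.0 kb before Il15ra, which runs from 11705172 to 11733985. Il4ra, on chromosome 7 from 125552271 to 125579474, ends 23.8 kb before Il21r, which runs from 125603252 to 125634397. Il12rb2 lies on chromosome 6 from 67285986 to 67376293, Il12rb1 on chromosome 8 from 70808360 to 70823542 and Il18r1 on chromosome 1 from 40465552 to 40500854. These spans take in predicted transcripts. The sequences of the 250 bases before the starts of curated RefSeq transcripts were read for 7 of the 9 members, and such a start can lie inside the span of its gene. They are shown for Il7r, higher in KO cells without overlap in both subsets, and Il4ra, higher without overlap in CD8+ cells. For Il15ra, lower in KO cells without overlap in both subsets, only the CpG counts are given. DNMT3a methylates cytosine in CpG, and the capitals mark each CpG. The last 65 bases of the Il7r window fall in an exon of a predicted transcript that starts further upstream, and the Il4ra window lies wholly outside the gene.
Il7r (chr15:9529877-9530126, - strand): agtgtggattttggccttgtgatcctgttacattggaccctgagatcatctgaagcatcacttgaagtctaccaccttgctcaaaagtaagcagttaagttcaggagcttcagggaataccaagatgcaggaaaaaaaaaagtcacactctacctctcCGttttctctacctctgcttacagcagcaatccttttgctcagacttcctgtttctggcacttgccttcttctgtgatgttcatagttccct
Il4ra (chr7:125552021-125552270, + strand): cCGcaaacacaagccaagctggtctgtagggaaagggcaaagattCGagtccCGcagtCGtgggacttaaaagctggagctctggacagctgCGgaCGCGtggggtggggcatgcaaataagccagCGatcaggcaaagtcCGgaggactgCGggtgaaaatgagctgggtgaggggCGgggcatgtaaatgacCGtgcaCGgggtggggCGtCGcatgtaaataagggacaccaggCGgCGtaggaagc
The Il7r window held 1 CpG, and 18.8% of 32851 promoter windows of this length had as few. The Il4ra window held 17, and 23.5% of the windows had as many. The window before the first curated start of Il15ra had 2 CpG and that before the second 12, against a median of 6 over all windows, and 121 and 198 of their bases fall in annotated exons of other Il15ra transcripts. The other windows held 3 CpG for Il2ra, 4 for Il21r, 10 for Il12rb2 and 3, 7 and 6 for the 3 starts of Il18r1. Of the 10 member windows, 7 overlap annotated exons of their own gene, so that these counts include transcribed sequence. The letters TTCNNNGAA, the STAT recognition core, which reads alike on both strands, occurred in the windows of Il7r and Il12rb2 and of the last start of Il18r1, and in 7.02% of all windows. The letters GTAAACA, a FOXO recognition core searched on both strands, occurred in the Il21r window and in 3.17% of all windows, and no member window held both motifs. Methylation was not used here.

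The members spanned a wide range of levels. On the scale of normalized counts per kb of annotated exon, Il2rb had the highest level of the 9 in all 5 groups, with a mean of 13848 ± 899 (SD, n = 4) in WT CD4+ cells and 17768 ± 827 in WT CD8+ cells. Il18r1 followed in the WT groups at 4525 ± 327 and 4590 ± 161. Il7r had rank 6 of 9 in WT CD4+ cells (2192 ± 272 per kb) and rank 7 in WT CD8+ cells (518 ± 49.4 per kb). In the KO groups it had rank 2 in CD4+ cells (5289 ± 1932 per kb), above Il18r1 (4189 ± 294 per kb) by less than its own SD, and rank 5 in CD8+ cells (1912 ± 1190 per kb). Il15ra and Il4ra were the 2 lowest members in all 5 groups, at 225 to 487 and 385 to 1015 per kb. These 2 also lay close together in WT CD8+ cells, where Il4ra was the lower of the pair.

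**Figure D1:**
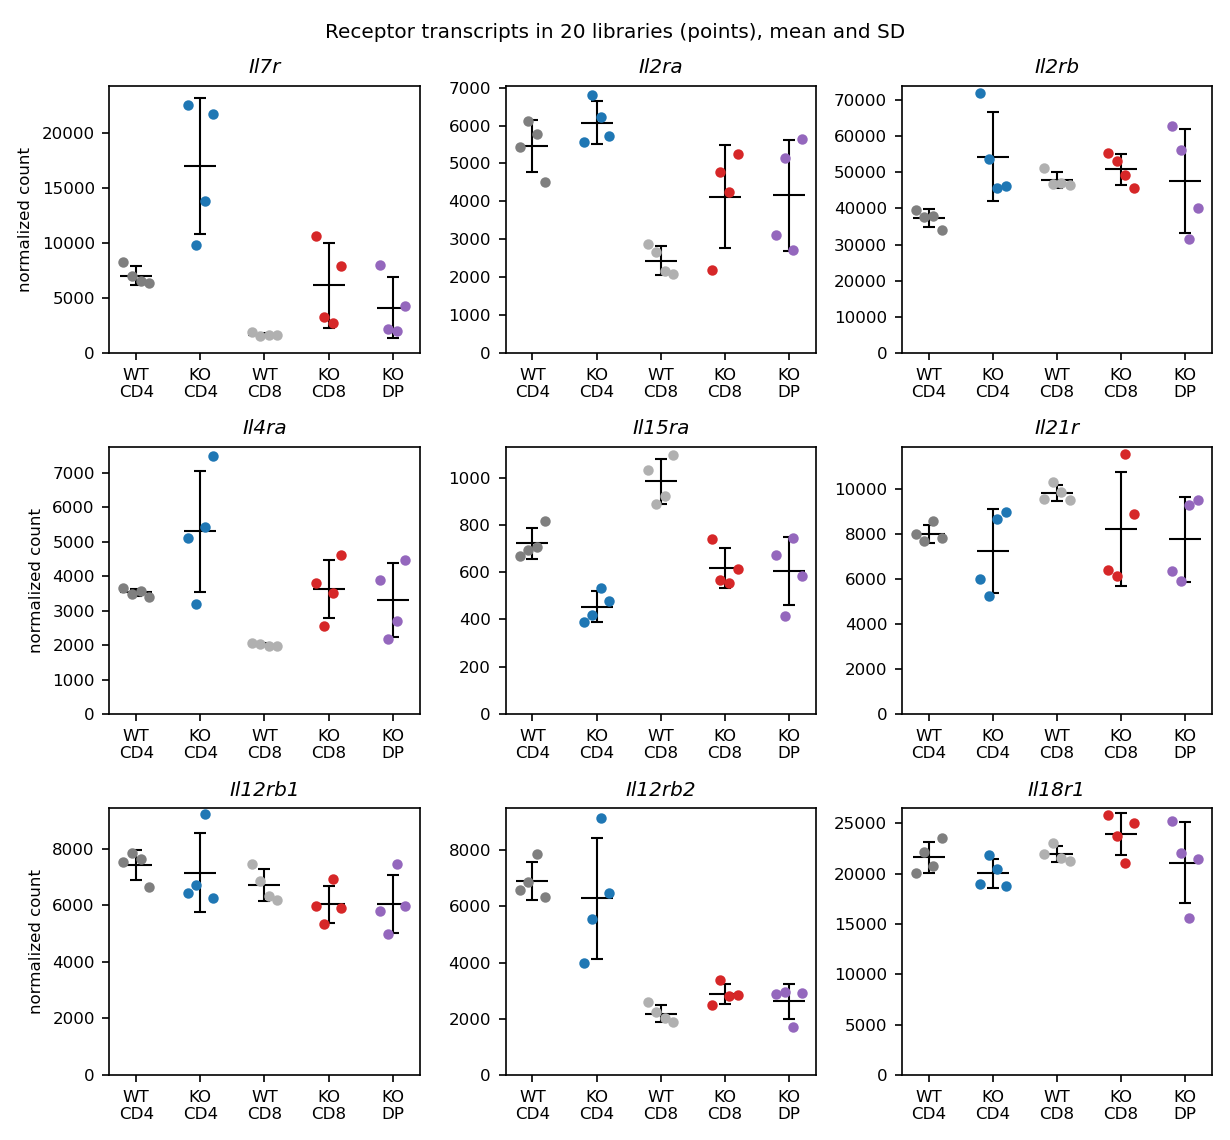
Normalized counts of the 9 receptor genes (y axis of each panel, linear, from 0) in the 5 groups (x axis), with 1 point for each of the 4 libraries of a group and the mean with its SD in black. Il7r stands higher in KO than in WT cells of the same subset with no overlap, Il15ra stands lower with no overlap, and the KO points are more spread than the WT points for Il7r, Il4ra and Il21r.

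The first question was how the receptors differed between KO and WT cells of the same subset. Il7r was 2.29 times higher in KO than in WT CD4+ cells and 3.15 times higher in KO than in WT CD8+ cells, and Il15ra was lower in KO cells of both subsets. Il2rb was higher in KO CD4+ cells, and Il4ra and Il12rb2 were higher in KO CD8+ cells. In bulk RNA, fewer cells with a transcript and less transcript per cell cannot be told apart. In CD4+ cells 3 of the 9 members passed the threshold, 2 higher and 1 lower, where 18.4% of 12391 genes passed (8.59% higher and 9.77% lower). In CD8+ cells 4 of the 9 passed, 3 higher and 1 lower, where 25.2% of 12383 genes passed (12.6% higher and 12.5% lower). The members' median log2 fold change was -0.07 in CD4+ cells and 0.12 in CD8+ cells, against -0.05 and -0.04 over all genes tested.

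Il7r stood at 22548, 9793, 13825 and 21746 in the CD4+ cells of KO animals 1 to 4. In the CD4+ cells of WT animals 2, 3, 5 and 6 it stood at 8285, 6957, 6568 and 6331. Every KO library was above every WT library, and KO animals 1 and 4 were the furthest above. The log2 fold change was 1.20 (SE 0.23, limma adjusted p = 0.0107). In CD8+ cells, Il7r stood at 10669, 3263, 2701 and 7920 in the KO animals and at 1879, 1504, 1605 and 1668 in the WT animals. The groups again did not overlap, and KO animals 1 and 4 were again the highest, while animals 2 and 3 lay nearer to the WT range. The log2 fold change was 1.65 (SE 0.39, adjusted p = 0.0151). Groups without overlap were found for 25.6% of all genes in CD4+ cells and 30.6% in CD8+ cells, and their exact permutation p was 0.0286 (2-sided), the smallest that 4 against 4 libraries can give. In a joint fit of the 20 libraries the CD4+ difference did not pass (adjusted p = 0.0730).

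Among the chains that bind IL-2 and IL-15, Il15ra stood at 390, 417, 532 and 479 in KO CD4+ cells and at 667, 694, 708 and 816 in WT CD4+ cells. In CD8+ cells it stood at 739, 566, 554 and 615 in KO and at 1031, 889, 921 and 1094 in WT animals. In both subsets all 4 KO libraries lay under all 4 WT libraries. The log2 fold change was -0.67 in each subset (SE 0.14, adjusted p = 0.0125 in CD4+ cells, and SE 0.13, adjusted p = 0.0062 in CD8+ cells). The CD4+ call was lost without WT replicate 6 (adjusted p = 0.0509). Its neighbour Il2ra did not pass in either subset, with log2 fold changes of 0.16 (SE 0.10, adjusted p = 0.2960) in CD4+ cells and 0.69 (SE 0.25, adjusted p = 0.0700) in CD8+ cells. In CD8+ cells Il2ra stood at 2178, 4776, 4252 and 5260 in KO animals 1 to 4 and at 2865, 2655, 2157 and 2074 in WT animals. KO animal 1 was within the WT range and the other 3 KO animals were above it, and the difference passed with edgeR (adjusted p = 0.0447), with DESeq2 (0.0077) and without KO replicate 1 (0.0012).

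Il2rb, the shared beta chain, stood at 71877, 53585, 45772 and 46196 in KO CD4+ cells and at 39705, 37757, 37977 and 33951 in WT CD4+ cells. The groups did not overlap, and animal 1 was highest by a wide margin. The log2 fold change was 0.52 (SE 0.14, adjusted p = 0.0312), and the call was lost under quantile normalization (0.31, adjusted p = 0.1166), in the joint fit (adjusted p = 0.0637) and with each WT library left out in turn (adjusted p 0.0619 to 0.0973). In CD8+ cells Il2rb lay between 45727 and 55457 in KO and between 46633 and 51259 in WT libraries, with a log2 fold change of 0.08 that turned to -0.15 under quantile normalization, neither of which passed. The ratio of Il2ra to Il2rb on the log2 scale was -2.78 ± 0.13 (SD, n = 4) in WT CD4+ cells and -3.14 ± 0.37 in KO CD4+ cells. In CD8+ cells it was -4.31 ± 0.18 in WT and -3.70 ± 0.67 in KO cells, with a KO range of -4.67 to -3.12 that enclosed the WT range of -4.49 to -4.14.

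For the ligand-binding chains of the IL-4 and IL-21 receptors, the neighbours Il4ra and Il21r, the values had opposite signs. Il4ra stood at 3785, 2564, 3518 and 4621 in KO CD8+ cells and at 2050, 2028, 1982 and 1979 in WT CD8+ cells. Every KO library was higher, while the 4 WT libraries differed by only 1.04 times between the highest and the lowest. The log2 fold change was 0.82 (SE 0.15, adjusted p = 0.0061). In CD4+ cells Il4ra stood at 5113, 3176, 5430 and 7467 in KO and at 3653, 3475, 3565 and 3404 in WT animals. KO animal 2 was below all WT libraries and the other 3 KO animals were above them, and the log2 fold change of 0.52 (SE 0.20) did not pass (adjusted p = 0.0912), though it passed with DESeq2 (0.0150) and without KO replicate 2 (0.0050). Il21r had log2 fold changes of -0.18 in CD4+ cells and -0.30 in CD8+ cells, and neither passed. In CD8+ cells it stood at 6426, 6119, 11559 and 8880 in KO animals and at 9583, 10303, 9890 and 9522 in WT animals. KO animal 3 was the highest of the 8 libraries and the other 3 KO animals were the lowest, and without that animal the log2 fold change was -0.48 (adjusted p = 0.0176).

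Among the IL-12 and IL-18 chains, 1 difference passed. Il12rb2, the inducible IL-12 chain, stood at 2490, 3383, 2811 and 2850 in KO CD8+ cells and at 2585, 2257, 2020 and 1884 in WT CD8+ cells. KO animal 1 lay below the highest WT library, so that the groups overlapped (exact permutation p = 0.0571, 2-sided). The log2 fold change was 0.40 (SE 0.12, adjusted p = 0.0391), a call that was lost in the joint fit (0.1877) and in 5 of 8 fits that left out 1 library, namely KO replicates 2 and 4 and WT replicates 3, 5 and 6 (0.0739 to 0.1118). In CD4+ cells Il12rb2 lay between 4000 and 9131 in KO and between 6324 and 7859 in WT libraries, with a log2 fold change of -0.19 (95% interval -0.64 to 0.26). Il12rb1, the chain shared with the IL-23 receptor, had log2 fold changes of -0.07 (95% interval -0.33 to 0.20) in CD4+ cells and -0.16 (-0.37 to 0.05) in CD8+ cells. Il18r1 had -0.11 (-0.29 to 0.07) and 0.12 (-0.05 to 0.29). None of these 5 values passed the threshold.

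**Figure D2:**
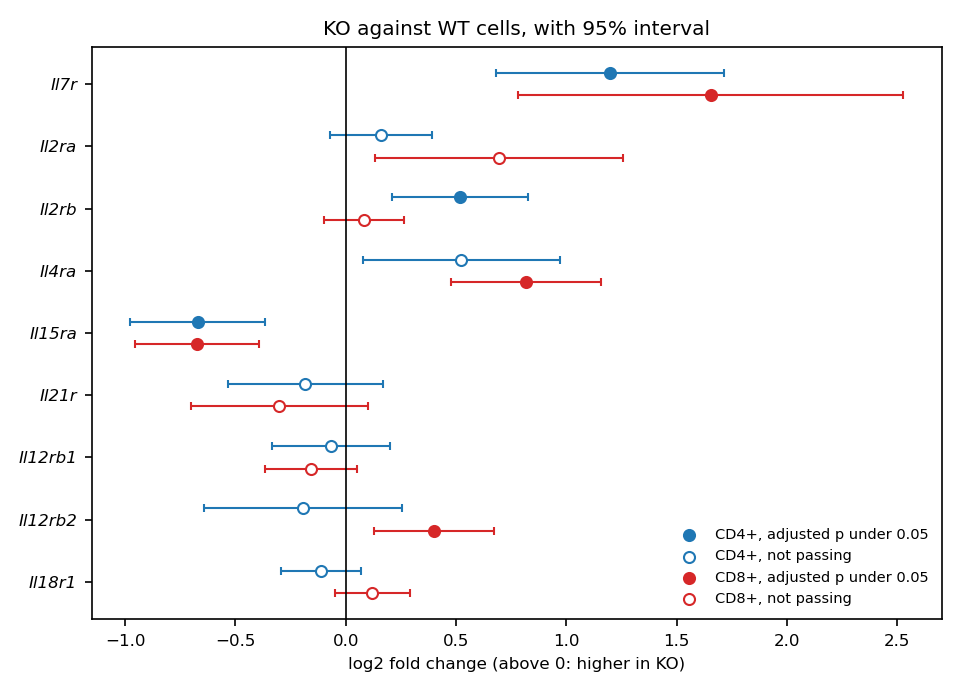
Log2 fold change of KO against WT cells (x axis, above 0 means higher in KO) for each of the 9 receptor genes (y axis) in CD4+ cells (blue) and CD8+ cells (red), with 95% intervals. Filled points had a limma adjusted p under 0.05, and a reader should see Il7r as the largest rise in both subsets (1.20 and 1.65), Il15ra at -0.67 in both, and the wide intervals of Il7r and Il2ra in CD8+ cells.

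Some other measures moved with the genotype. Sums of stress and of B cell genes did not overlap between KO and WT libraries of either subset. The sums of dendritic, NK, myeloid and regulatory T cell markers overlapped in both. The summed level of 8 genes of stress and cell handling, which include Hspa1a and Fos, lay between 7038 and 11891 in KO CD4+ and between 20511 and 48408 in WT CD4+ libraries, and between 6027 and 7894 in KO CD8+ and between 14497 and 29820 in WT CD8+ libraries, with 6 of the 8 genes lower in KO cells in each subset. Of all genes tested, 9.77% passed as lower in KO CD4+ and 12.5% in KO CD8+ cells. The median log2 fold change of the 8 genes was -2.86 in CD4+ and -2.99 in CD8+ cells. Hspa1a lay between 13.2 and 82.1 in KO CD4+ and between 2221 and 10881 in WT CD4+ libraries. In CD8+ cells it lay between 4.12 and 57.8 in KO and between 1435 and 6483 in WT libraries. Of 6 B cell markers, 5 had values and their sum was higher in KO cells, at 646 to 1121 against 55.7 to 89.0 in CD4+ cells and 1426 to 2282 against 165 to 260 in CD8+ cells. Most of it was Cd79b, and Ms4a1 and Pax5 were at 0 in every KO CD8+ library. The sum of 4 dendritic cell markers lay between 1195 and 2192 in KO CD4+ and between 2156 and 2567 in WT CD4+ libraries, and between 5031 and 11767 in KO CD8+ and between 7379 and 10843 in WT CD8+ libraries, with 3 of the 4 genes lower in KO cells in each subset. NK cells also express Il2rb, and 3 of 4 of their markers were tested. In CD8+ cells Klrb1c was higher in KO (log2 fold change 2.73, adjusted p = 0.0090) and Klre1 and Eomes, which activated CD8+ T cells can also express, were lower (-1.58 and -1.19, adjusted p = 0.0149 and 0.0025), with a median of -1.19, and in CD4+ cells Klrb1c alone passed (1.85, adjusted p = 0.0280). The sum of the 4 lay between 2068 and 4726 in KO CD8+ and between 4197 and 5344 in WT CD8+ libraries, and between 507 and 1770 in KO CD4+ and between 685 and 1515 in WT CD4+ libraries. Ncr1, the marker most particular to NK cells, was at 0 in every CD4+ library and at most 4.49 in KO CD8+ and 6.72 in WT CD8+ libraries, under the filter on low values. Of 7 myeloid markers, Lyz2 and Adgre1 were lower in KO CD4+ cells (-3.03 and -1.17, adjusted p = 0.0352 and 0.0457) and 0 passed in CD8+ cells, with sums of 1106 to 3200 in KO and 2749 to 3445 in WT CD4+ libraries and of 2556 to 5818 in KO and 3478 to 6102 in WT CD8+ libraries. The part of these in the receptor differences was not tested. Because Il2ra also marks regulatory T cells, 3 other markers of these cells (Ikzf2, Ctla4 and Nrp1) were summed, and the sum lay between 11905 and 22072 in KO CD4+, 18360 and 20927 in WT CD4+, 7643 and 14845 in KO CD8+ and 11432 and 13951 in WT CD8+ libraries. The KO range enclosed the WT range in both subsets, and Foxp3 was not analysed here. In CD4+ cells the means of Ikzf2 (3205 in KO, 4787 in WT) and Nrp1 (6347, 7948) were lower in KO. That of Ctla4 (7660, 6806) was higher. Nrp1 had a mean of 7225 in WT CD8+ cells too, so that the sum is not particular to regulatory T cells.

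Other genes of the same pathways were taken from lists, whose median log2 fold changes in CD4+ and CD8+ cells were -0.14 and 0.05 for other receptor chains, -0.12 and -0.05 for JAK and STAT genes, 0.10 and 0.17 for survival and growth genes and 0.03 and 0.06 for factors that act on Il7r. Of 31 other interleukin and interferon receptor chains tested in CD4+ cells, 4 were higher and 6 lower in KO cells, and of 28 tested in CD8+ cells 5 were higher and 5 lower. Ifngr1, the ligand-binding interferon gamma receptor chain, was higher in KO cells of both subsets (log2 fold changes 0.91 and 0.70, adjusted p = 0.0072 and 0.0216). Csf2ra, the GM-CSF receptor alpha chain, was lower in KO cells of both subsets (-1.60 and -1.97, adjusted p = 0.0165 and 0.0014). Among 11 JAK and STAT genes, 1 was higher and 4 were lower in KO CD4+ cells, and 4 were higher and 4 lower in KO CD8+ cells. Jak3, the kinase that binds the gamma chain, was lower in both, at 11213 ± 3133 against 18300 ± 1895 in CD4+ cells (log2 fold change -0.74, adjusted p = 0.0177) and at 11319 ± 2478 against 21008 ± 567 in CD8+ cells (-0.92, adjusted p = 0.0027). Jak1, which binds the other chain of these receptors, was higher in both (0.39, adjusted p = 0.0332, and 0.61, adjusted p = 0.0112). Stat2, which serves interferon receptors, and Tyk2 were lower in both. Stat5a and Stat5b were higher in KO CD8+ cells (log2 fold changes 0.27 and 0.25, adjusted p = 0.0417 and 0.0165). The Stat5 pair had values in CD4+ cells of -0.12 and 0.01, which did not pass. The 12 feedback inhibitors, which include Socs1, Socs3 and Cish, lay between -0.21 and 0.24 in CD4+ cells and between -0.50 and 0.56 in CD8+ cells, with a lowest adjusted p of 0.1498 and 0.0572.

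Among 11 survival and growth genes that gamma chain cytokines induce, 2 were higher in KO CD4+ cells, and 2 were higher and 1 lower in KO CD8+ cells. The share of all genes beside this count and those below was 18.4% in CD4+ and 25.2% in CD8+ cells. Bcl2, the survival factor that IL-7 maintains, was higher in both. It stood at 21206, 11954, 7635 and 15205 in KO CD4+ cells and between 5784 and 7290 in WT CD4+ cells (log2 fold change 1.00, SE 0.25, adjusted p = 0.0233). In CD8+ cells it stood at 20656, 13078, 3854 and 9947 in KO animals and between 3343 and 4115 in WT animals (1.42, SE 0.41, adjusted p = 0.0329). KO animal 3 was the lowest KO animal in both subsets and lay inside the WT range in CD8+ cells. Myc, which encodes a transcription factor of cell growth, was lower in KO CD8+ cells (-0.65, adjusted p = 0.0368). Of 15 transcription factors that act on Il7r, 2 were lower in KO CD4+ cells, and 5 were higher and 3 lower in KO CD8+ cells. Those lower in CD4+ cells were Zeb2, a factor of terminal effector cells (-1.08, adjusted p = 0.0194), and Gata3, the factor of type 2 helper cells (-0.28, adjusted p = 0.0354). In CD8+ cells Zeb2 was lower as well (-0.50, adjusted p = 0.0275), as was Gfi1, a repressor of Il7r (-0.77, adjusted p = 0.0062). Foxo1, which activates Il7r, and Foxo3 were higher in KO CD8+ cells (0.46 and 0.53, adjusted p = 0.0194 and 0.0304). Of the ligands of these receptors, 2 of 7 tested were lower in KO CD4+ cells, among them Il21 (-1.35, adjusted p = 0.0418), and the 4 tested in CD8+ cells lay between -1.79 and -0.65 with a lowest adjusted p of 0.1214.

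The second question was how the receptors differed between CD4+ and CD8+ cells of the same genotype. In WT cells 4 members were higher in CD4+ than in CD8+ cells and 3 were lower, so that 7 of 9 passed, where 44.5% of 12559 genes passed (22.3% higher and 22.2% lower). Of the members Il7r had the largest difference, 2.08 on the log2 scale (SE 0.09, adjusted p = 9.4e-10), and Il12rb2 followed with 1.67 (SE 0.09, adjusted p = 1.3e-08). Il2ra (1.17) and Il4ra (0.81) were also higher in CD4+ cells. The chains that were lower in CD4+ cells were Il15ra (-0.45), Il2rb (-0.36) and Il21r (-0.29), each with groups that did not overlap, as 41.8% of all genes had. In the joint fit these 3 did not pass (adjusted p = 0.0820, 0.2089 and 0.4048). Il12rb1 differed by 0.14 (adjusted p = 0.0982), which passed with the animal as a block (0.0239), and Il18r1 by -0.02. The WT CD4+ cells thus held almost equal counts of the IL-12 chains, with a log2 ratio of Il12rb2 to Il12rb1 of -0.10 ± 0.11 (SD, n = 4), where WT CD8+ cells had -1.63 ± 0.08.

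In KO cells 1 member passed, Il12rb2 with 1.07 (SE 0.22, adjusted p = 0.0256), where 4.22% of 12189 genes passed (2.73% higher and 1.48% lower), and it did not pass without KO CD4+ replicate 4 or without KO CD8+ replicates 1, 3 or 4 (0.0544 to 0.0796). Equal numbers marked the same animal within a genotype, and with the animal as a block 4 members and 2305 genes passed instead of 1 and 514. Il7r, with a difference of 1.62 (adjusted p = 0.0825 without the block and 0.0002 with it), was higher in the CD4+ library in 4 of 4 animals, by 1.08 to 2.36. Il4ra (0.52, 0.0016 with the block) and Il2ra (0.63, 0.0219 with the block) were higher in CD4+ cells in 4 of 4 animals too, by 0.31 to 0.69 and by 0.12 to 1.35. Il2rb was higher in 3 animals and lower in 1 (mean 0.07), where in WT animals it was lower in 4 of 4. The groups did not overlap for Il2ra, Il15ra and Il12rb2, and neither did those of 10.1% of all genes.

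**Figure D3:**
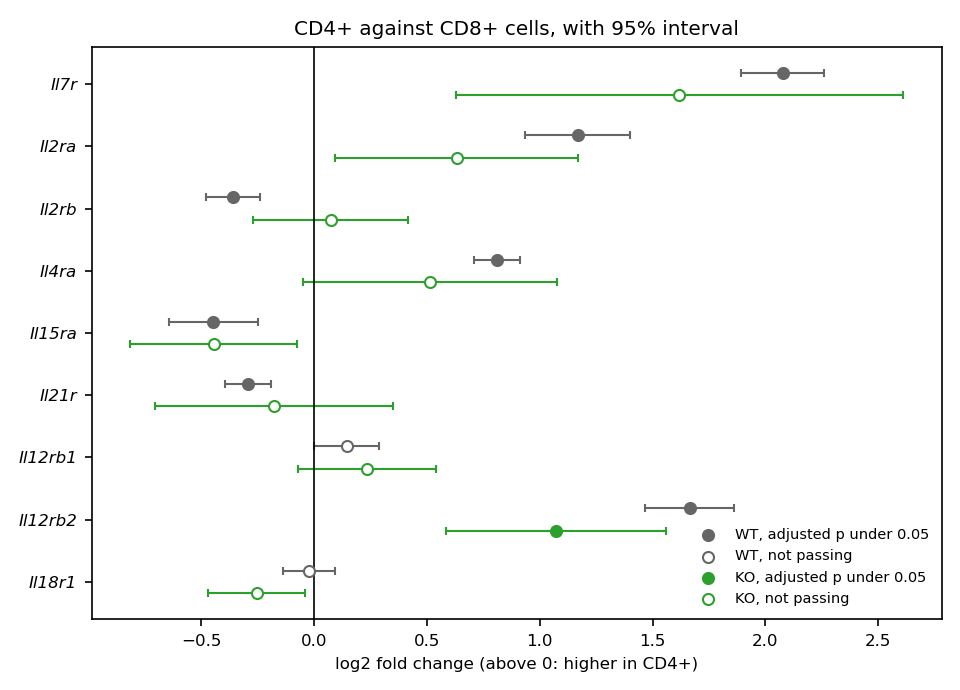
Log2 fold change of CD4+ against CD8+ cells (x axis, above 0 means higher in CD4+) for each of the 9 receptor genes (y axis) in WT (gray) and KO cells (green), with 95% intervals from fits without the animal as a block. Filled points had a limma adjusted p under 0.05, and the KO intervals are wider than the WT intervals, with Il7r at 2.08 in WT and 1.62 in KO cells.

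Whether the genotype difference itself differed between the subsets was tested as an interaction in the 16 CD4+ and CD8+ libraries. With limma 0 of 9 members passed, where 0.0161% of 12446 genes passed, and edgeR and DESeq2 also called 0 members. At an unadjusted p under 0.05 there were 3 members, Il2rb, Il12rb2 and Il18r1, where 6.37% of all genes were. The Il7r difference was 0.46 larger in CD8+ than in CD4+ cells on the log2 scale, with a 95% interval of -0.60 to 1.51. For Il15ra the interaction was -0.0018 (-0.38 to 0.38). For Il2rb it was -0.43 (SE 0.17), that is, a smaller rise in CD8+ cells, which passed only with the animal as a block (adjusted p = 0.0494, with 173 genes called).

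The last comparisons set KO DP cells against the single-positive KO cells. In DP cells Il7r stood at 8035, 2208, 1998 and 4280 in animals 1 to 4. In each animal the DP value was the lowest of the 3 subsets, as the plot of the KO animals shows. Against CD4+ cells the log2 fold change of Il7r was -2.19 (SE 0.43, adjusted p = 0.0341) and that of Il12rb2 was -1.24 (SE 0.26, adjusted p = 0.0453). These 2 of 9 members passed, both lower in DP cells, where 1.95% of 12175 genes passed (0.682% higher and 1.26% lower). Il7r did not pass with edgeR (0.0612) or in fits without KO CD4+ replicate 1, 3 or 4 or KO DP replicate 2, 3 or 4 (0.0569 to 0.1126), and Il12rb2 did not pass in 7 of 8 fits that left out 1 library, all but that without KO CD4+ replicate 1 (0.0591 to 0.1311). With the animal as a block 860 genes passed and Il4ra joined them (-0.67, adjusted p = 0.0245), lower in DP cells of 4 of 4 animals.

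Against CD8+ cells 0 of 9 members passed with limma, edgeR or DESeq2, and 0 had an unadjusted p under 0.05, where 0.00823% of 12153 genes passed and 1.95% had an unadjusted p under 0.05. No member had groups without overlap, which 2.7% of all genes had. The Il7r difference was -0.57 (95% interval -1.76 to 0.61), and within animals DP cells were lower in 4 of 4, by 0.41 to 0.89. With the animal as a block and all 4 animals, Il7r did not pass (-0.57, adjusted p = 0.4055), and 0 members and 1 gene passed. In a fit chosen after the data were seen, with the block and without DP replicate 3, the value was -0.62 (adjusted p = 7.6e-05) and 778 genes passed, so that this call rests on leaving out 1 library. The other 8 members had differences between -0.20 and 0.02, each with an interval that included 0. Il7r, Il2ra, Il2rb, Il12rb2 and Il18r1 were at 1998, 2721, 31421, 1702 and 15640 in the DP library of animal 3, the lowest of the 4 DP libraries for each. Il15ra and Il12rb1 were highest in that library, at 745 and 7460.

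The ratio of the highest to the lowest library was larger in KO than in WT cells for 7 of 9 members in CD4+ cells, all but Il2ra and Il18r1, and for 8 of 9 in CD8+ cells, all but Il12rb2. The median ratio over genes was also larger in KO cells of both subsets, as given below. The share of all genes with a larger KO ratio was not computed, so that these counts are not read as particular to the members. For Il7r the highest library was 3.95 times the lowest in KO CD8+ and 4.02 times in KO DP cells, against 1.25 times in WT CD8+ cells, and over 6569 genes with a mean of at least 1000 the median of this ratio was 1.32, 1.57 and 1.11. For Il4ra the ratio was 2.35 in KO and 1.07 in WT CD4+ cells, where the medians over genes were 1.30 and 1.15. The order of animals recurred across subsets. Animal 1 was highest for Il7r, followed by animal 4, in all 3 subsets, and animal 1 was also highest for Il2rb in all 3, followed by animal 2. Animal 4 was highest and animal 2 lowest for Il4ra in all 3. For Il21r animals 3 and 4 were the top pair, animal 1 came next and animal 2 was lowest in all 3, and animal 3 was highest for Il12rb1 in all 3. The orders of Il2ra, Il15ra, Il12rb2 and Il18r1 changed between subsets. The 3 libraries of an animal share its recipient, and these orders were not tested.

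**Figure D4:**
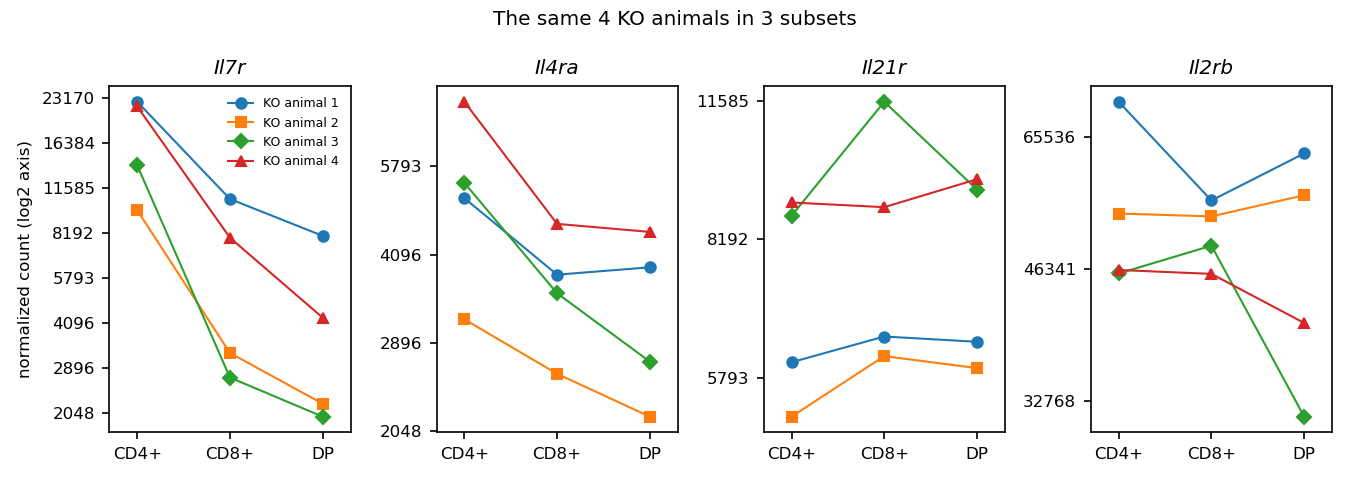
Normalized counts (y axis, log2 scale) of Il7r, Il4ra, Il21r and Il2rb in the CD4+, CD8+ and DP libraries (x axis) of KO animals 1 to 4, 1 line per animal. For Il7r every line falls from CD4+ to CD8+ to DP cells with animal 1 on top (22548, 10669 and 8035), while for Il21r animals 3 and 4 stay above animals 1 and 2 in each subset.

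Genes with the pattern most like that of Il7r were ranked by Pearson correlation of log2 values over the 20 libraries, among 10709 genes. The first 5 were Tgfbr2 (r = 0.97), the TGF-beta receptor chain, Rnf139 (0.97), Pecam1 (0.97), which encodes an adhesion molecule, Sh3bp5 (0.96) and Slc39a11 (0.96). After the mean of each group was subtracted, r was 0.86 to 0.92 for these 5. Tgfbr2 had KO against WT log2 fold changes of 0.40 in CD4+ and 0.53 in CD8+ cells. It was picked for its likeness to Il7r in these same libraries, so that its changes are no separate result. For the other members the first gene was Tex2 for Il2ra (r = 0.92), Gm11346 for Il2rb (0.87), Zfp64 for Il4ra (0.96), Rgl2 for Il15ra (0.92), Cept1 for Il12rb1 (0.86), Ccnd2 for Il12rb2 (0.95) and Itpr3 for Il18r1 (0.87). For Il21r it was another cytokine receptor chain, Il3ra (0.90). The libraries share animals, genotypes and subsets, so that these values are descriptions.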

How the data were processed

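RNA was measured in 20 libraries of sorted mouse donor T cells, with genotype, subset and animal taken from the labels. The authors aligned reads of stranded poly(A) libraries to mm10 (GRCm38) with STAR, counted read pairs per gene by strand, and deposited a signal, counts over DESeq2 size factors, for 17101 genes. Version 2.7.2b of STAR stands in the submitters' processing notes. Undoing the division gave whole reads for 100% of the values (tolerance 0.0001).

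Genes with a mean of at least 10 over the libraries compared were tested with limma 3.58.1 in R 4.3.3 (with trend) on log2 values after a pseudocount of 1 was added, with 2-sided P values adjusted by the Benjamini-Hochberg procedure (threshold 0.05). Single members had 2-sided exact permutation tests. Alternatives were a pseudocount of 10, no filter, quantile normalization, a common 75th percentile, whole reads in DESeq2 1.42.0 or edgeR 4.0.16 (quasi-likelihood), all 20 libraries in a joint fit, animals as blocks, and fits without 1 library. The members and gene lists were chosen with earlier results of these data known. Named list genes are some of those that passed with the largest changes, besides Ifngr1 in CD8+ cells, Jak1 in CD4+ cells, Stat5a, Stat5b and the animals' values of Bcl2, which were chosen after their values were seen. Exon lengths are unions over curated RefSeq transcripts.

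Equal numbers within a genotype paired the libraries (r of deviations 0.271 to 0.538 within KO and 0.120 to 0.196 within WT animals), and the labels name them alike. The limma P values weigh a difference against the spread between animals, pooled over the groups compared and drawn towards that of other genes. On simulated data limma recovered 92.0% of 199 changed genes in the CD4+ comparison with a false share of 5.67%. Each changed gene was given a change of the same size, larger than that of every member but Il7r in CD4+ cells. All genes had the same dispersion in both genotypes, so that the simulation does not give the power for the members. Whether these shares hold for the members, or for genes whose spread differs between KO and WT libraries, was not tested. Bisulfite sequencing was not used here.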

Additional observations from a re-analysis of the deposited data

Results flagged for a closer look

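Within groups of 4 libraries, 3 member values stood far from the other 3, out of 45 groups tested, and chance alone gives about 1 in 20. Il2rb was at 51259 in WT CD8 replicate 2, where the other 3 libraries lay between 46633 and 46988. Il12rb1 was at 9225 in KO CD4 replicate 3, where the others lay between 6246 and 6727. Il12rb2 was at 1702 in KO DP replicate 3, where the others lay between 2885 and 2970, and this library had reads on 11783 genes.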

How the results depend on the processing

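Of 1098 member values under the alternatives, 993 kept their direction and their side of the threshold. The number of members that passed was 3 for KO against WT CD4+ cells (1 in the joint fit, 0 with the replicate block, 1 to 4 with a library left out) and 4 in CD8+ cells (0 with the block, 3 to 5). Genes that passed numbered 2274 and 3118, against 1304 and 2017 in the joint fit, 26 and 89 with the block, and 628 to 2963 and 1633 to 4092 with a library left out, the lowest without WT CD4 or WT CD8 replicate 6 and the highest without KO replicate 3. Across genotypes only the numbers 2 and 3 are shared, equal numbers correlated by at most 0.0990 for the same subset, and the block there is no pairing. For CD4+ against CD8+ cells, 7 members and 5592 genes passed in WT cells (4 and 1610 in the joint fit), and 1 and 514 in KO cells (2 and 885 in the joint fit, 4 and 2305 with the block, 956 genes with DESeq2, 0 to 1 members and 233 to 486 genes with a library left out). For DP against CD4+ cells, 2 and 237 passed (1 member with edgeR, 728 genes with DESeq2, 1459 in the joint fit, 860 with the block, 1713 with the block and without DP replicate 3, 0 to 1 members and 84 to 279 genes with a library left out). For DP against CD8+ cells, 0 and 1 passed (3 genes with DESeq2, 1 member and 778 genes with the block and without DP replicate 3). For the interaction, 0 and 2 passed (1 member and 173 genes with the block, 21 genes with DESeq2, 7 with no filter, 1 with edgeR or in the joint fit, 0 to 5 with a library left out). The causes were not tested.

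Values that turned sign were all of members that had not passed. In KO against WT CD4+ cells the block gave 0.033 for Il12rb1, 0.083 for Il12rb2 and 0.0047 for Il18r1, and in CD8+ cells quantile normalization gave -0.15 for Il2rb and -0.012 for Il18r1, and the block -0.0076 for Il18r1. In DP against CD8+ cells quantile normalization gave 0.0026 and the common 75th percentile 0.0013 for Il12rb1, and the block without DP replicate 3 gave 0.024 for Il2rb, 0.013 for Il21r and 0.022 for Il12rb2. The common 75th percentile gave 0.0043 for the Il15ra interaction. With a library left out, the range was -0.39 to 0.0042 for Il12rb2 in KO against WT CD4+ cells, -0.065 to 0.014 for Il18r1 in CD4+ against CD8+ WT cells, and -0.069 to 0.15 for Il2rb and -0.30 to 0.0022 for Il21r in KO cells. In DP against CD8+ cells it was -0.26 to 0.20 for Il2ra, -0.17 to 0.11 for Il15ra, -0.20 to 0.11 for Il21r, -0.11 to 0.085 for Il12rb1, -0.32 to 0.025 for Il4ra, -0.29 to 0.039 for Il2rb and -0.24 to 0.032 for Il12rb2. In DP against CD4+ cells it was -0.034 to 0.23 for Il21r and -0.037 to 0.19 for Il18r1, and for the interaction -0.090 to 0.077 for Il15ra, -0.16 to 0.037 for Il12rb1 and -0.30 to 0.010 for Il21r.

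The intervals rest on the spread between 4 animals a group, the part of depth in it was not tested, and exact tests of single members cannot reach a p below 0.0286.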
